A study of Danio rerio with 12 samples.

Results

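The glutamate receptor genes of whole zebrafish larvae were compared between elmo1-/- and elmo1+/+ larvae at 120 hours post fertilization (hpf). Genes were taken as receptor genes where the gene symbol, upper or lower case, began with grin1 to grin3 or with gria, grik or grm and a digit. For delta receptors the whole symbol had to be grid with its number, alone or followed by a or b. At least 10 counts had to be reached in at least 6 of the 12 samples. This gave 43 of the 32520 genes in the files, namely 8 AMPA, 13 NMDA, 6 kainate, 3 delta and 13 metabotropic receptor genes. All 43 identifiers with such a symbol reached the count minimum, and all 43 had at least 10 counts in each of the 12 samples. No glutamate receptor gene was changed between genotypes at an adjusted p under 0.05, a threshold passed by only 51 of all 21830 genes tested (0.234%).

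The elmo1-/- larvae are homozygous for a frameshift insertion in exon 2 of elmo1, which was made with CRISPR/Cas9 and is predicted to end translation early. The elmo1+/+ larvae are wild type for elmo1. The study's methods give the endothelial reporter line Tg(fli1:EGFP) as the line used. The mutation was made in it, and mutant founders were crossed back to it. The sample titles do not name the reporter for either genotype. Each genotype was represented by 6 samples of 30 pooled whole larvae, so a value is the mean over all tissues and over the animals of a pool. The labels do not say whether the pools of a genotype came from separate clutches, and the p-values measure the spread between these pools. In such bulk RNA, fewer neurons and less receptor RNA per neuron cannot be told apart.

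Glutamate is the main excitatory transmitter of the vertebrate nervous system, including the larval brain, spinal cord and retina. AMPA, NMDA and kainate receptors are tetrameric cation channels that open on binding of glutamate, whereas delta receptors belong to the same family but are bound by cerebellins and act mainly as synaptic adhesion proteins. Metabotropic receptors couple to G proteins, group I to Gq, and groups II (GRM2 and GRM3) and III (GRM4, GRM6, GRM7 and GRM8) to Gi or Go. Many mammalian receptor genes have a pair of zebrafish orthologues, and 26 of the 43 genes share 13 symbols in this way. Such a pair is named copy 1 and copy 2 here, in the order of the Ensembl identifiers. Reads that fit both copies could have been divided between them during quantification.

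Total expected counts lay between 20.8 and 21.8 per sample, in units of 1e+06. The mutated gene itself, elmo1 (ENSDARG00000098753), had from 97.1 to 119.7 normalized counts (CPM, scaled to 1e+06 counts; median 107) in elmo1-/- samples and from 121.7 to 143 CPM (median 128) in elmo1+/+ samples. The genotypes did not overlap for elmo1, and its log2 fold change was -0.26 (SE 0.059, adjusted p = 0.137). The neuronal marker list, which bears on the tissue source of the receptors, had a median log2 fold change of 0.012 over 17 tested genes, and 0 of them passed an adjusted p under 0.05. Its defining genes were present in each genotype, with a summed level from 1827 to 2105 TPM (transcripts per 1e+06 transcripts) in elmo1-/- samples and from 1880 to 2270 TPM in elmo1+/+ samples. In the 12 lists of cell type markers 2 genes passed an adjusted p under 0.05, namely FABP7 (ENSDARG00000034650), a lowly expressed copy of a radial glia marker with 1.95 ± 0.68 CPM in elmo1-/- larvae, against 0.062 ± 0.057 CPM in elmo1+/+ larvae (SD, n = 6 pools each), and the endothelial transcription factor gene FLI1 (ENSDARG00000054632) with 80.4 ± 6.49 CPM in elmo1-/- larvae, against 105 ± 3.05 CPM in elmo1+/+ larvae (SD, n = 6 pools each). The highest summed TPM of all receptor genes in each genotype was found in elmo1-/- sample 5 with 526 TPM and in elmo1+/+ sample 1 with 558 TPM, and the genotype values were therefore also computed without these 2 samples.

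The levels of the receptor genes were first compared with each other in TPM, which takes gene length into account. The most abundant genes were the 2 copies of GRIN1, the subunit that every NMDA receptor needs. GRIN1 copy 1 (ENSDARG00000025728) averaged 74.3 ± 4.44 TPM in elmo1-/- and 75.8 ± 6.23 TPM in elmo1+/+ larvae (SD, n = 6 pools each). GRIN1 copy 2 (ENSDARG00000027828) averaged 73.3 ± 3.44 TPM in elmo1-/- and 76.0 ± 4.44 TPM in elmo1+/+ larvae (SD, n = 6 pools each). The copies were at nearly equal levels and changed places between samples, as copy 1 was the higher one in 7 of 12 samples. Together they held 80.9% ± 0.86 of the summed NMDA receptor TPM in elmo1-/- and 81.2% ± 1.23 in elmo1+/+ larvae (SD, n = 6 pools each).

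The other NMDA receptor subunits were far lower. The GRIN2 genes, which bind glutamate and set the kinetics of the channel, summed to 29.1 ± 2.56 TPM in elmo1-/- and 29.4 ± 2.47 TPM in elmo1+/+ larvae (SD, n = 6 pools each). Thus the GRIN1 genes exceeded the GRIN2 genes by a TPM ratio of 5.10 ± 0.34 in elmo1-/- and 5.19 ± 0.41 in elmo1+/+ samples. Among the GRIN2 types the GRIN2A genes had the highest level with a mean of 11.96 TPM over all 12 samples, ahead of the GRIN2B genes with 8.44 TPM, the GRIN2C genes with 5.64 TPM and the GRIN2D genes with 3.18 TPM. The single genes in this group were grin2ab (ENSDARG00000070543) with a mean of 7.64 TPM, GRIN2B copy 2 (ENSDARG00000079348) with 4.93 TPM, GRIN2A (ENSDARG00000034493) with 4.32 TPM and GRIN2C copy 2 (ENSDARG00000078149) with 3.88 TPM. GRIN2B copy 1 (ENSDARG00000030376) had a mean of 3.51 TPM, and GRIN2C copy 1 (ENSDARG00000077560), grin2da (ENSDARG00000086207) and grin2db (ENSDARG00000070620) lay between 1.47 and 1.76 TPM. The GRIN3 genes encode glycine-binding subunits and were represented by GRIN3B (ENSDARG00000098667) with 2.98 TPM, grin3a (ENSDARG00000075802) with 1.78 TPM and grin3ba (ENSDARG00000005364) with 1.03 TPM. Of the 12 pairs of neighbours in the NMDA order by TPM, 9 overlapped in their ranges over the samples. The clear steps were those from GRIN1 copy 2 to grin2ab, from grin2ab to GRIN2B copy 2 and from GRIN3B to grin3a. By CPM the lower part of this order differed, as GRIN2B copy 2 had rank 6 instead of 4 and grin2da rank 7 instead of 11.

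**Figure D1:**
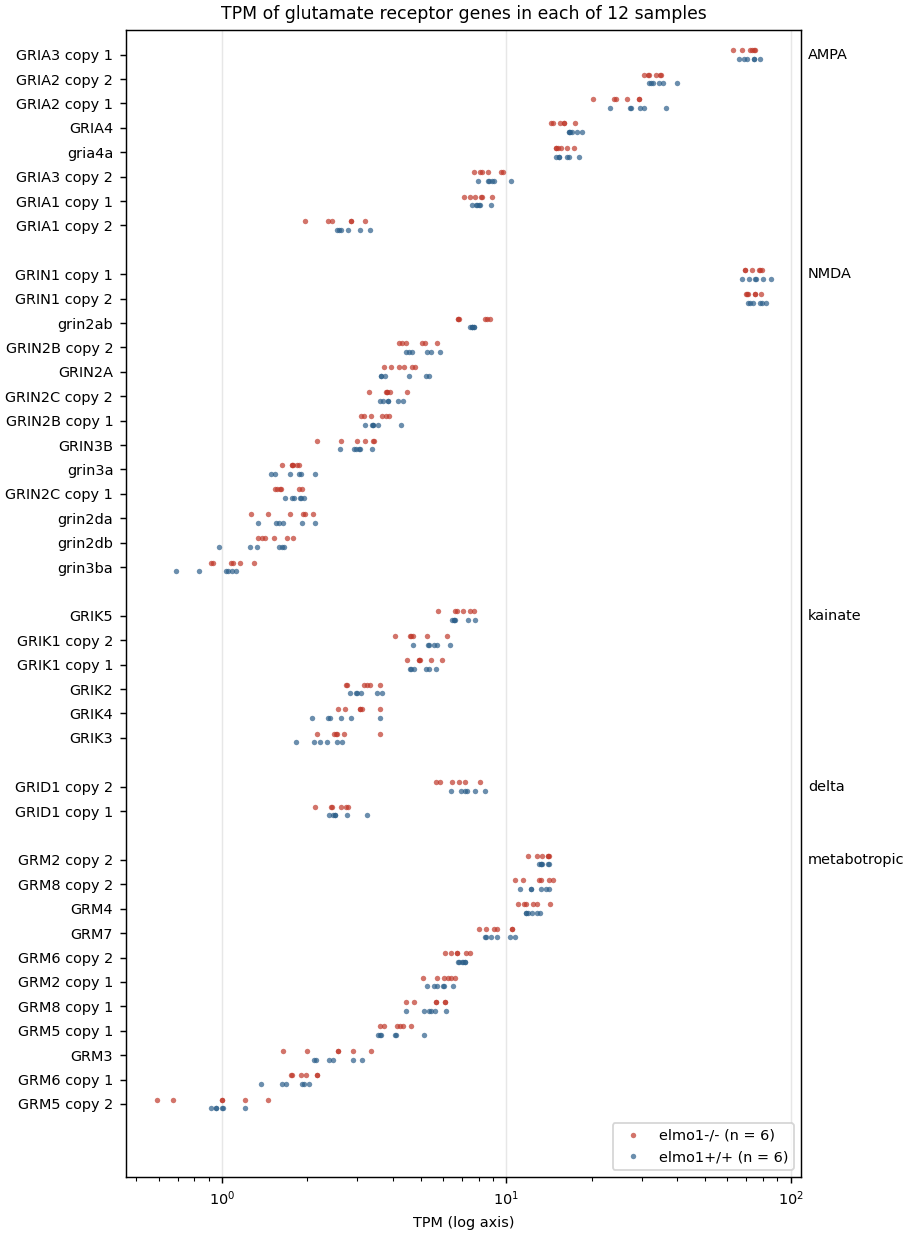
TPM of 40 glutamate receptor genes in each of the 12 samples on a log axis, by receptor class and in the order of the mean level, with elmo1-/- samples in red above elmo1+/+ samples in blue. The GRIN1 copies and GRIA3 copy 1 lie at the top, with means from 71.4 to 75.1 TPM, and the samples of both genotypes overlap for every gene shown.

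AMPA receptors carry fast excitatory transmission. GRIA3 copy 1 (ENSDARG00000032737) led this class with 70.8 ± 4.85 TPM in elmo1-/- and 72.0 ± 4.54 TPM in elmo1+/+ larvae (SD, n = 6 pools each). GRIA2, which in mammals makes AMPA receptors nearly impermeable to calcium, followed with copy 2 (ENSDARG00000070173) at 32.9 ± 1.81 TPM in elmo1-/- and 34.5 ± 3.02 TPM in elmo1+/+ larvae (SD, n = 6 pools each). GRIA2 copy 1 (ENSDARG00000052765) was below copy 2 in all 12 samples, with a mean of 27.4 TPM. The 2 GRIA4 genes were close to each other, with 16.5 TPM for GRIA4 (ENSDARG00000059368) and 15.9 TPM for gria4a (ENSDARG00000037496), and GRIA4 was higher in 9 of 12 samples. The lower end was formed by GRIA3 copy 2 (ENSDARG00000037498) with 8.81 TPM, GRIA1 copy 1 (ENSDARG00000021352) with 7.999 TPM and GRIA1 copy 2 (ENSDARG00000032714) with 2.72 TPM.

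The order in this class depended on the unit. GRIA3 copy 1 held 38.7% of the summed AMPA receptor TPM but 17.1% of the summed CPM, which does not take length into account. GRIA1 copy 1 held 4.34% of the TPM but 15.3% of the CPM. The length behind this can be read from the files as count divided by TPM, relative to the median gene, and was 0.518 for GRIA3 copy 1, the lowest of all 43 receptor genes, and 4.12 for GRIA1 copy 1. Whether the short length stands for the transcripts that the larvae make or for the transcript models used in quantification was not tested.

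**Figure D2:**
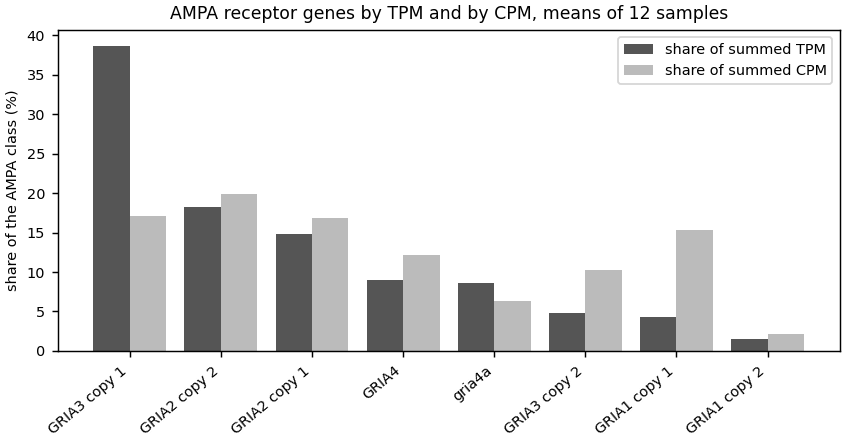
Share of each AMPA receptor gene in the class, in percent, as means over all 12 samples, by summed TPM (dark bars) and by summed CPM (light bars). GRIA3 copy 1 holds 38.7% of the TPM but 17.1% of the CPM, and GRIA1 copy 1 holds 4.34% of the TPM but 15.3% of the CPM.

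Kainate receptors combine GRIK1 to GRIK3, which can form channels alone, with GRIK4 and GRIK5, which need one of these as a partner. The GRIK1 to GRIK3 genes summed to 15.8 ± 1.13 TPM in elmo1-/- and 16.0 ± 0.86 TPM in elmo1+/+ larvae (SD, n = 6 pools each). The GRIK4 and GRIK5 genes summed to 9.91 ± 0.90 TPM in elmo1-/- and 9.54 ± 1.02 TPM in elmo1+/+ larvae (SD, n = 6 pools each). GRIK5 (ENSDARG00000101449) was the most abundant single gene with a mean of 6.89 TPM, above GRIK1 copy 2 (ENSDARG00000069139) with 5.21 TPM in all 12 samples. GRIK1 copy 1 (ENSDARG00000040627) had 5.08 TPM and did not differ from copy 2 beyond their spread. GRIK2 (ENSDARG00000113771), GRIK4 (ENSDARG00000026753) and GRIK3 (ENSDARG00000077715) followed with 3.16, 2.84 and 2.47 TPM, and their ranges overlapped. The place of GRIK2 depended on the unit, as it had rank 4 in the class by TPM and rank 2 by CPM.

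The GRID1 copies belong to the delta receptors. GRID1 copy 2 (ENSDARG00000074583) ranged from 5.65 to 8.42 TPM over the samples, and GRID1 copy 1 (ENSDARG00000044161) was below it in all 12 samples, with a mean of 2.58 TPM.

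Group III receptors made up the largest share of the metabotropic receptor TPM, with 56.8% ± 0.65 in elmo1-/- and 56.8% ± 1.66 in elmo1+/+ larvae (SD, n = 6 pools each). Group II held 25.6% ± 0.68 in elmo1-/- and 25.6% ± 0.79 in elmo1+/+ samples. These shares differed between genotypes by less than the spread between samples. At the top of the class, GRM2 copy 2 (ENSDARG00000007195) averaged 13.4 TPM, GRM8 copy 2 (ENSDARG00000077654) 12.8 TPM and GRM4 (ENSDARG00000040156) 12.3 TPM, and these levels overlapped. They were followed by GRM7 (ENSDARG00000100267) with 9.34 TPM, which was below GRM4 without overlap. GRM6 is the glutamate receptor by which ON bipolar cells of the retina receive photoreceptor input, and its copy 2 (ENSDARG00000025671) had 6.88 TPM, whereas copy 1 (ENSDARG00000017742) had 1.86 TPM. Between these lay GRM2 copy 1 (ENSDARG00000004150), GRM8 copy 1 (ENSDARG00000076508), GRM5 copy 1 (ENSDARG00000004445) and GRM3 (ENSDARG00000031712), with means from 2.51 to 5.94 TPM. GRM5 is a group I receptor, and its copy 2 (ENSDARG00000102067) was at a low level with 0.998 TPM but still had from 36 to 86 counts per sample. As in the AMPA class, the order depended on the unit. By TPM, GRM8 copy 2 had rank 2 in the class, GRM7 rank 4 and GRM5 copy 1 rank 9. By CPM their ranks were 6, 8 and 4. The shares of the groups were computed by TPM only.

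The balance between the copies of a pair was different for each symbol, and in 11 of the 13 pairs the same copy was the higher one by TPM in all 12 samples, the exceptions being GRIN1 and GRIK1. GRIA3 copy 1 exceeded copy 2 by a TPM ratio of 8.21 ± 0.72 in elmo1-/- and 8.07 ± 0.43 in elmo1+/+ larvae (SD, n = 6 pools each), but by a CPM ratio of only 1.67 ± 0.15 in elmo1-/- and 1.68 ± 0.10 in elmo1+/+ samples. For GRIN2B the unit turned the order, as copy 2 was higher than copy 1 by TPM (mean ratio 1.41 over the 12 samples) and lower by CPM (mean ratio 0.643). The ratio of GRIA2 copy 2 to copy 1 ranged from 1.16 to 1.24 by CPM but from 1.08 to 1.52 by TPM, and the length of GRIA2 copy 1 varied between samples with a coefficient of variation of 8.73%. In all 13 pairs the ratios of both genotypes overlapped. Length varied by more than 5% in 8 of the 43 genes, at most by 11.6% in GRIK4. For these genes the values in TPM were divided by the varying length, while those in CPM were not. Whether the variation lies in the transcripts or in the estimate of length was not tested.

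To identify receptor genes regulated by the loss of Elmo1, the counts of both genotypes were fitted in edgeR and tested by quasi-likelihood, and p-values were adjusted by Benjamini-Hochberg over all 21830 genes tested. At an adjusted p under 0.05, 51 genes were changed (0.234% of the genes tested), and 0 of the 43 receptor genes were among them. The lowest adjusted p of a receptor gene was 0.714. At an unadjusted p under 0.05 there were 1345 genes (6.16%) and 2 receptor genes, GRIK3 and GRIA4. By direction these were 668 genes higher in elmo1-/- (3.06%) with 1 receptor gene, and 677 genes lower in elmo1-/- (3.1%) with 1 receptor gene. The count of 2 of 43 is close to this background. In 0.513% of the genes tested the CPM of the genotypes did not overlap, and 0 receptor genes were among these. DESeq2 and limma-voom likewise gave 0 receptor genes at an adjusted p under 0.05 and 2 at an unadjusted p under 0.05. The share of all genes past the unadjusted threshold in these fits is not given here.

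The intervals show how large a difference these data leave room for. The 95% interval of the log2 fold change lay within 0.25 of 0 (a change of up to 18.9% upwards) in 34 receptor genes, and within 0.5 of 0 (41.4% upwards) in 42 receptor genes. The narrowest interval was that of GRIA4, with 0.087 to either side of its value. In 38 of 43 receptor genes the log2 fold change was smaller than 0.1 in either direction. The median size was 0.044 in receptor genes and 0.071 in all genes tested. These sets were not matched by count, so the difference is not read as a trait of the receptor genes.

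**Figure D3:**
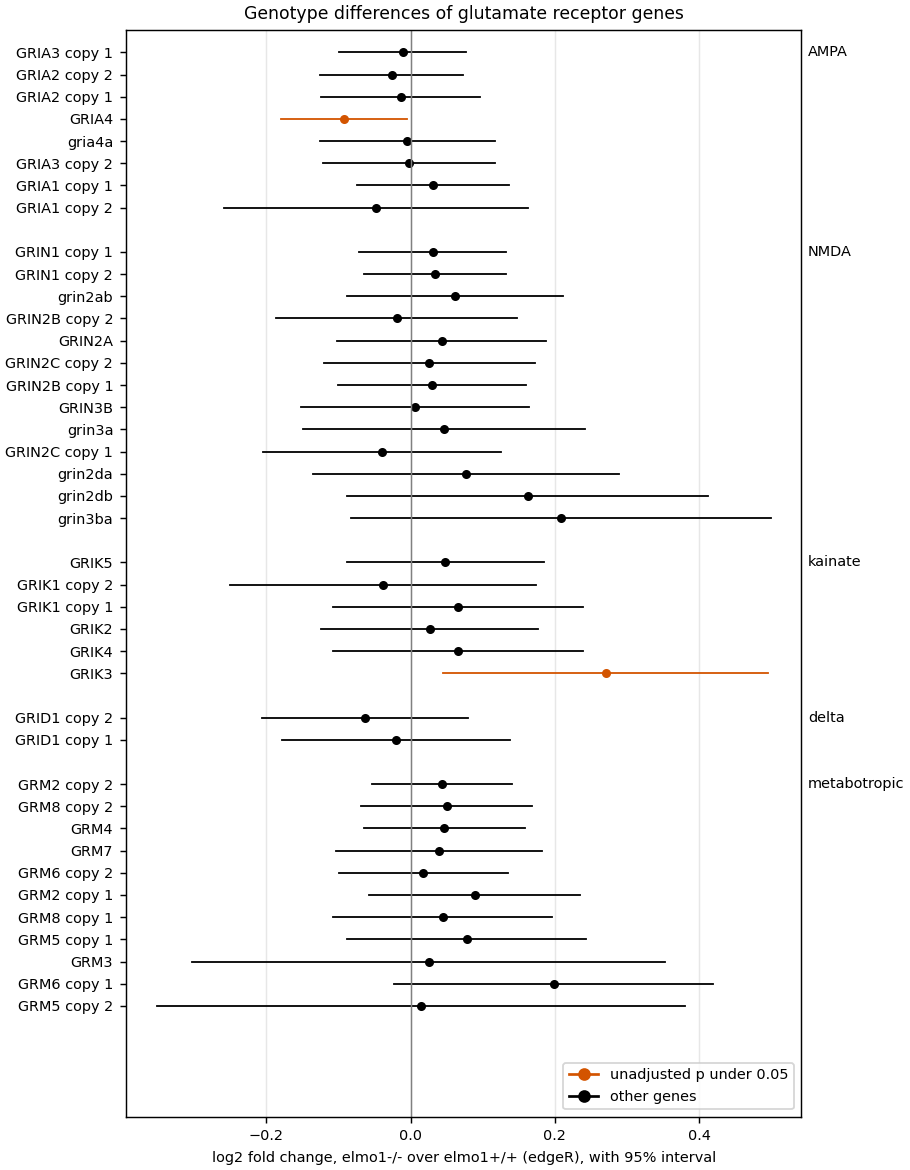
Log2 fold change of 40 glutamate receptor genes, elmo1-/- over elmo1+/+, from edgeR (point) with its 95% interval (line), by receptor class in the order of the mean TPM. GRIK3 with 0.27 and GRIA4 with -0.093, in orange, have an unadjusted p under 0.05, and the intervals of the other 38 genes include 0.

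GRIK3, a kainate receptor subunit, had the highest log2 fold change of the receptor genes. It had from 6.64 to 10.2 CPM (median 7.94) in elmo1-/- samples and from 5.55 to 7.55 CPM (median 6.86) in elmo1+/+ samples. Thus 5 of 6 elmo1-/- samples lay above the highest elmo1+/+ sample, and elmo1-/- sample 4 lay within the range of elmo1+/+. The log2 fold change of GRIK3 was 0.27 (SE 0.106, 95% interval from 0.045 to 0.50, unadjusted p = 0.0218, adjusted p = 0.714 by edgeR), and the two-sided exact permutation test on log2 CPM gave p = 0.0325. It rested partly on elmo1-/- sample 5 with 10.2 CPM and on elmo1+/+ sample 3 with 5.55 CPM, as the log2 fold change was 0.19 (unadjusted p = 0.0634) without the first and 0.22 (unadjusted p = 0.0544) without the second.

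The other kainate receptor genes differed less. GRIK5 had from 19.7 to 24.7 CPM (median 22.4) in elmo1-/- and from 20.4 to 23.2 CPM (median 21.1) in elmo1+/+ samples, with a log2 fold change of 0.048 (SE 0.064). GRIK1 copy 2 had from 8.84 to 11.9 CPM (median 10.4) in elmo1-/- and from 8.79 to 11.99 CPM (median 11.1) in elmo1+/+ samples, with a log2 fold change of -0.038 (SE 0.099). In GRIK5, 1 elmo1-/- sample lay above and 2 lay below the range of elmo1+/+, whereas in GRIK1 copy 2 all elmo1-/- samples lay within it. GRIK1 copy 1, GRIK2 and GRIK4 had log2 fold changes from 0.026 to 0.066.

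In the AMPA class, GRIA4 had the lowest log2 fold change. It had from 38.3 to 42.4 CPM (median 40.1) in elmo1-/- samples and from 42.3 to 43.7 CPM (median 43.2) in elmo1+/+ samples. In 5 of 6 elmo1-/- samples GRIA4 lay below the lowest elmo1+/+ sample, and elmo1-/- sample 2 lay just above it. The difference was small, with a log2 fold change of -0.093 (SE 0.041, 95% interval from -0.18 to -0.0056), which corresponds to -6.23%. GRIA4 had the smallest spread within genotypes of the 43 receptor genes (SD of log2 CPM 0.040), and its unadjusted p was 0.0385 by edgeR (adjusted p = 0.782) and 0.00433 by the two-sided exact permutation test, in which 0.00216 is the smallest p possible. When single samples were left out, the unadjusted p lay between 0.0238 and 0.0869 and was not under 0.05 in 7 of 12 cases, namely without elmo1-/- sample 1, 3 or 4 or elmo1+/+ sample 1, 4, 5 or 6. The second gene of this type, gria4a, had a log2 fold change of -0.0047 (SE 0.057), and the TPM ratio of gria4a to GRIA4 was 1.009 ± 0.073 in elmo1-/- and 0.933 ± 0.034 in elmo1+/+ larvae (SD, n = 6 pools each), a difference that was not tested.

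The leading AMPA receptor genes were nearly equal between genotypes. GRIA3 copy 1 had from 55.5 to 61.7 CPM (median 58.7) in elmo1-/- and from 57.0 to 60.8 CPM (median 59.6) in elmo1+/+ samples, with a log2 fold change of -0.011 (SE 0.041). GRIA2 copy 2 had from 64.3 to 71.1 CPM (median 68.4) in elmo1-/- and from 65.6 to 75.1 CPM (median 69.4) in elmo1+/+ samples, with a log2 fold change of -0.026 (SE 0.047). The highest log2 fold change of the class was that of GRIA1 copy 1 with 0.031 (SE 0.049). It had from 51.0 to 59.7 CPM (median 52.1) in elmo1-/- and from 49.2 to 53.9 CPM (median 52.9) in elmo1+/+ samples, and its sign turned to -0.0048 without elmo1-/- sample 4, which had 59.7 CPM. GRIA2 copy 1, GRIA3 copy 2 and GRIA1 copy 2 had log2 fold changes from -0.048 to -0.0022.

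In the NMDA class the intervals of all 13 genes included 0. GRIN1 copy 1 had from 282 to 312 CPM (median 294) in elmo1-/- and from 268 to 306 CPM (median 290.0) in elmo1+/+ samples, with a log2 fold change of 0.030 (SE 0.048). GRIN1 copy 2 had from 194 to 225 CPM (median 206) in elmo1-/- and from 193 to 211 CPM (median 203) in elmo1+/+ samples, with a log2 fold change of 0.033 (SE 0.046). For each GRIN1 copy the range of elmo1-/- began within that of elmo1+/+ and ended above it. At the ends of the class were grin3ba and GRIN2C copy 1. The subunit gene grin3ba had from 3.01 to 4.49 CPM (median 3.62) in elmo1-/- and from 2.29 to 3.82 CPM (median 3.29) in elmo1+/+ samples, with a log2 fold change of 0.21 (SE 0.14, unadjusted p = 0.148 by edgeR). GRIN2C copy 1 had from 5.83 to 7.62 CPM (median 6.58) in elmo1-/- and from 6.58 to 7.25 CPM (median 6.86) in elmo1+/+ samples, with a log2 fold change of -0.039 (SE 0.077). The remaining 9 NMDA receptor genes lay between -0.019 and 0.16, with grin2db at the upper end. Of the 44 RefSeq gene names that match the symbols of the receptor family, 1 is placed on the chromosome of elmo1, namely grin2da, which had a log2 fold change of 0.077 (SE 0.0996, unadjusted p = 0.453 by edgeR).

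Both GRID1 copies of the delta class were slightly below 0. GRID1 copy 2 had from 11.2 to 14.4 CPM (median 12.4) in elmo1-/- and from 12.3 to 14.5 CPM (median 13.0) in elmo1+/+ samples, with a log2 fold change of -0.064 (SE 0.067). The elmo1-/- samples spread more widely and reached further down. GRID1 copy 1 had from 7.69 to 9.23 CPM (median 8.44) in elmo1-/- and from 7.98 to 9.98 CPM (median 8.44) in elmo1+/+ samples, with a log2 fold change of -0.021 (SE 0.074) that became 0.025 without elmo1+/+ sample 1.

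Among metabotropic receptor genes the highest log2 fold change was that of GRM6 copy 1, a gene of low level. It had from 3.97 to 4.88 CPM (median 4.17) in elmo1-/- and from 3.05 to 4.32 CPM (median 3.67) in elmo1+/+ samples. All 6 elmo1-/- samples were above the median of elmo1+/+, but the ranges overlapped. Its log2 fold change was 0.20 (SE 0.10, 95% interval from -0.023 to 0.42, unadjusted p = 0.0749, adjusted p = 0.867 by edgeR), and the two-sided exact permutation test gave p = 0.0455. The more abundant GRM6 copy 2 had a log2 fold change of 0.018 (SE 0.055). Of the 11 tested genes that act with GRM6 in ON bipolar cells, such as the channel and G protein regulators of this cascade, 0 had an unadjusted p under 0.05 and the median log2 fold change was 0.080. Over 6 markers of retinal bipolar cells the median was 0.11, with 5 above 0, against a median of 0.0043 over all genes tested. At an unadjusted p under 0.05, 1 of the 6 was higher, against 3.06% of all genes tested, and 0 passed an adjusted p under 0.05. The summed levels of these markers ran from 65.8 to 78.5 TPM in elmo1-/- and from 63.9 to 75.6 TPM in elmo1+/+ samples. The part of such cells in the value of GRM6 copy 1 was not tested. A median of this size was not particular to bipolar cells. Medians of the other marker lists ran from -0.31 in exocrine pancreas to 0.26 in erythrocytes, with 0.096 in liver and 0.091 in myelinating glia.

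The abundant GRM2 copy 2 had from 42.4 to 48.3 CPM (median 43.6) in elmo1-/- and from 42.8 to 44.3 CPM (median 43.3) in elmo1+/+ samples, with a log2 fold change of 0.044 (SE 0.045). GRM8 copy 2 had from 19.7 to 23.4 CPM (median 21.7) in elmo1-/- and from 19.997 to 21.7 CPM (median 20.9) in elmo1+/+ samples, with a log2 fold change of 0.050 (SE 0.056). In both genes the elmo1-/- samples spread more widely than the elmo1+/+ samples. In GRM2 copy 1, GRM3, GRM4, GRM5 copies 1 and 2, GRM7 and GRM8 copy 1 the log2 fold changes lay between 0.014 and 0.088.

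**Figure D4:**
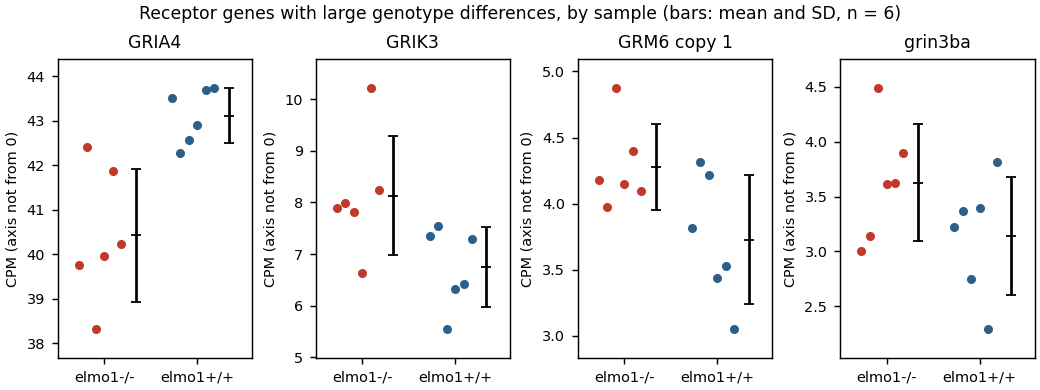
CPM of GRIA4, GRIK3, GRM6 copy 1 and grin3ba in each sample, with elmo1-/- samples in red to the left of elmo1+/+ samples in blue; bars give mean and SD (n = 6), and the vertical axes do not start at 0. In GRIA4, 5 of 6 elmo1-/- samples lie below all elmo1+/+ samples, in GRIK3, 5 of 6 lie above them, and the ranges of both genotypes overlap in all 4 genes.

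By count, 29 receptor genes had a log2 fold change above 0 and 14 below 0, and the median was 0.030, against 0.0043 over all genes tested, of which 51.7% were above 0. The median was -0.013 in the AMPA class with 1 of 8 genes above 0, 0.033 in the NMDA class with 11 of 13, 0.057 in the kainate class with 5 of 6 and 0.044 in the metabotropic class with 12 of 13. The delta class is not included in this comparison by class. On the log2(TPM + 1) scale the median turned to -0.016 and 14 receptor genes were above 0, where the median of all genes tested was -0.038, and the medians of the NMDA and metabotropic classes turned to -0.013 and -0.0025. After removal of the median of all tested genes from each sample, the value was 0.024 and 29 genes were above 0. The deviation of the receptor genes from their means, as a median over the 43 genes in log2 CPM, ranged from -0.039 to 0.082 in elmo1-/- and from -0.037 to 0.041 in elmo1+/+ samples. For neuronal markers this value ranged from -0.083 to 0.098 in elmo1-/- and from -0.11 to 0.089 in elmo1+/+ samples, so the overlap between genotypes was wide in both lists.

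Summed by class, AMPA receptor genes reached 180.0 ± 10.96 TPM in elmo1-/- and 189 ± 14.3 TPM in elmo1+/+ samples, and NMDA receptor genes 183 ± 9.99 TPM in elmo1-/- and 187 ± 10.9 TPM in elmo1+/+ larvae (SD, n = 6 pools each). Metabotropic receptor genes summed to 85.7 ± 6.22 TPM in elmo1-/- and 85.6 ± 4.46 TPM in elmo1+/+ larvae (SD, n = 6 pools each). The kainate class followed with 25.7 ± 1.56 TPM in elmo1-/- and 25.5 ± 1.68 TPM in elmo1+/+ larvae (SD, n = 6 pools each). In each of these 4 classes the samples of both genotypes overlapped, and the delta class was not summed for this comparison. The 3 samples with the highest receptor sums, elmo1+/+ sample 1 with 558 TPM, elmo1-/- sample 5 with 526 TPM and elmo1+/+ sample 4 with 516 TPM, were also those with the highest TMM factors (1.04, 1.05 and 1.04), by which CPM but not TPM were scaled. The shares of the NMDA and AMPA classes in all receptor TPM were steady. The NMDA class held 37.3% ± 0.30 in elmo1-/- and 37.1% ± 0.16 in elmo1+/+ samples. The AMPA class held 36.8% ± 0.70 in elmo1-/- and 37.4% ± 0.87 in elmo1+/+ samples. This near equality depended on the unit. By summed CPM, the NMDA class ran from 660 to 725 in elmo1-/- and from 652 to 688 in elmo1+/+ samples. The AMPA class ran from 325 to 362 CPM in elmo1-/- and from 338 to 366 CPM in elmo1+/+ samples. GRIA3 copy 1, with its low relative length of 0.518, held 38.7% of the AMPA receptor TPM.

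**Figure D5:**
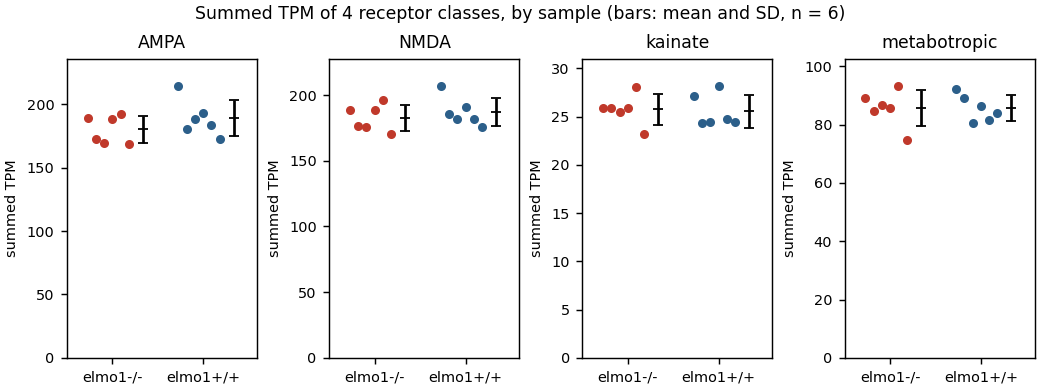
Summed TPM of 4 receptor classes in each sample, with elmo1-/- samples in red to the left of elmo1+/+ samples in blue; bars give mean and SD (n = 6). The AMPA class (180.0 TPM in elmo1-/-, 189 TPM in elmo1+/+) and the NMDA class (183 TPM in elmo1-/-, 187 TPM in elmo1+/+) are the largest, and the genotypes overlap in every class shown.

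Genes that act with the receptors were examined in the same fit. Vesicular glutamate transporters, which fill synaptic vesicles, had a median log2 fold change of -0.011 over 5 genes, from -0.14 for SLC17A8 to 0.072 for a copy of SLC17A7. Plasma membrane glutamate transporters had a median of 0.044 (10 genes), and enzymes that make or convert glutamate and glutamine had a median of -0.0066 (9 genes). In these lists 0 genes had an unadjusted p under 0.05. Of the 23 AMPA receptor auxiliary subunits, such as the TARPs that guide AMPA receptors to the synapse, 0 passed an adjusted p under 0.05. Their median log2 fold change was 0.040, with 17 of 23 above 0. At an unadjusted p under 0.05, 1 gene was higher, against 3.06% of all genes tested. This was cacng4a (ENSDARG00000115540), which was singled out after its values were seen, with 6.23 ± 0.55 CPM in elmo1-/- larvae, against 5.09 ± 0.46 CPM in elmo1+/+ larvae (SD, n = 6 pools each) and a log2 fold change of 0.29 (SE 0.089, adjusted p = 0.472 by edgeR). Neto proteins and cerebellins, partners of kainate and delta receptors, had a median of 0.034 (8 genes), and postsynaptic scaffolds had a median of -0.013 (29 genes tested), each with 0 genes at an unadjusted p under 0.05.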

How the data were processed

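Per the labels and the study's methods, total RNA of 30 pooled larvae per sample was isolated with RNeasy kits and sequenced on a BGISEQ-500. The submitters' processing notes name Trim Galore 0.6.4, kallisto 0.4.6 and the build GRCz11, and parameters are not given in the sources used here. The deposited files hold expected counts per gene, not whole numbers throughout, and TPM values, which the authors normalized for length and depth. Symbols were matched to 29201 of 32520 identifiers (89.8%), and upper-case symbols are names of orthologues.

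Expected counts were rounded, filtered with filterByExpr and scaled with TMM factors in edgeR 4.0.16 (R 4.3.3), and genotype was the only term of the quasi-likelihood fit. CPM were computed from the expected counts and TMM-scaled totals. Single genes were also compared by two-sided exact permutation over 924 relabellings of log2 CPM (prior count 2). Alternatives were DESeq2 1.42.0, limma-voom (limma 3.58.1), other normalization factors and filters, log2 TPM with pseudocounts of 1 and 0.1, a replicate block and leaving out samples. Centring of log2 TPM on the median gene, and leaving out 2 samples together, were chosen after seeing the data.

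The receptor genes and the lists were chosen with earlier results of these data known. Named genes are elmo1, in each class the 2 genes of highest mean TPM and those of highest and lowest log2 fold change, and each receptor gene with an unadjusted p under 0.05 or without overlap between genotypes. Other listed genes are named where the adjusted p is under 0.05. SLC17A8 and a copy of SLC17A7 are also named, as the ends of the short list of vesicular glutamate transporters. The gene cacng4a is an exception chosen after its values were seen. Other receptor genes are named for their level, and their log2 fold changes are given mostly as ranges within a class. These are given singly for gria4a and GRM6 copy 2, beside the named gene of the same type, and for grin2da by its chromosome. The counts over receptor genes cover 43 genes, of which 3 are not reported here one by one. No receptor sequences were used here, and gene positions only to find, in the RefSeq gene table (assembly GRCz12tu), which receptor genes share a chromosome with elmo1.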

Additional observations from a re-analysis of the deposited data

Results flagged for a closer look

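In 5 of 96 sets of 6 values (the CPM of each receptor gene and the summed TPM of each class, by genotype), a single sample lay far from the others of its genotype. A nominal rate of 1 in 20 sets would give 4.8 of 96. The sets share the same 12 samples, and the class sums contain the single genes, so the sets are not independent. Whether the flagged values go beyond chance was not tested. GRIA2 copy 1 had 52.0 CPM in elmo1-/- sample 3, where the remaining elmo1-/- samples had 58.0 to 60.4 CPM. GRIA1 copy 1 had 59.7 CPM in elmo1-/- sample 4, where the remaining samples had 51.0 to 53.6 CPM, and this sample decided the sign of its small genotype difference. GRM2 copy 1 had 12.9 CPM in elmo1-/- sample 6, where the remaining samples had 14.7 to 15.4 CPM. In wild type, GRIK5 had 23.2 CPM in elmo1+/+ sample 4 (the remaining samples 20.4 to 21.3 CPM), and GRID1 copy 1 had 9.98 CPM in elmo1+/+ sample 1 (the remaining samples 7.98 to 8.71 CPM). The 5 values came from 5 different samples.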

How the results depend on the processing

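In each of 23 alternative settings, 0 receptor genes passed an adjusted p under 0.05, and the lowest adjusted p of a receptor gene was 0.509. The number of receptor genes with an unadjusted p under 0.05 was 1 without a filter on low counts, with log2(TPM + 1), with log2(TPM + 0.1) and with a replicate block, 4 with log2(TPM + 1) centred on the median gene of each sample, and from 1 to 3 when single samples were left out. The share of all genes tested past this threshold is given here only for the main fit (6.16%). The counts of the other settings are therefore not compared with a background. Over all genes, 51 were changed, against 97 with DESeq2, 30 at an adjusted p under 0.01 and from 34 to 67 without single samples (34 without elmo1-/- sample 3 or 4, 67 without elmo1-/- sample 5). The median log2 fold change of the receptor genes, 0.030, was -0.016 with log2(TPM + 1) and -0.020 with log2(TPM + 0.1), where the median of all genes was -0.038 and -0.044, and from 0.013 to 0.045 without single samples.

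Of the 16 receptor genes named by the rule above, for their level or for their genotype difference, 8 kept their direction in each setting. With log2(TPM + 1) and log2(TPM + 0.1), in this order, the log2 fold change turned to -0.015 and -0.017 in GRIA1 copy 1, -0.027 and -0.027 in GRIN1 copy 1, -0.050 and -0.051 in GRIN1 copy 2, -0.0021 and -0.0027 in GRIK5, and -0.016 and -0.018 in GRM2 copy 2. With log2(TPM + 1) centred on the median gene of each sample, the log2 fold change turned to 0.017 in GRIA3 copy 1 and -0.0096 in GRIN1 copy 2. Without elmo1+/+ sample 1 and elmo1-/- sample 5 it turned to 0.012 in GRIK1 copy 2 and 0.035 in GRID1 copy 1. Without single samples it ranged from -0.0048 to 0.042 in GRIA1 copy 1, from -0.088 to 0.0039 in GRIK1 copy 2 and from -0.046 to 0.025 in GRID1 copy 1. None of these values passed a test, and the cause was not tested.

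Both genotypes carry sample numbers 1 to 6. The sample titles do not say that equal numbers mark pairs, and the main fit did not take them as pairs. Same-numbered samples deviated together in part (correlations of their deviations over genes from -0.033 to 0.304), and 3 of the 6 numbers correlated best with their own partner. These values do not settle whether the numbers mark pairs, and a replicate block was therefore fitted as an alternative. With the replicate block, 60 genes were changed and the median of the receptor genes was 0.031.

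Total expected counts were 20.8 to 21.8 per sample in units of 1e+06, and GRM5 copy 2 had 36 counts in its lowest sample. The interval of its log2 fold change ran from -0.35 to 0.38. Its SD of log2 CPM was 0.43 in elmo1-/- and 0.10 in elmo1+/+ samples. The parts of low counts and of spread between pools in this width were not tested.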
